A study of Mus musculus with 4 samples.

Results

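The genes described here are 10 Langerhans cell and MHC class II genes, chosen by name. Cd74, H2-Aa, H2-Ab1 and H2-Eb1 encode the invariant chain and class II chains. Cd207 encodes langerin, the lectin that marks Langerhans cells, and Ctss encodes cathepsin S. Tyrobp, Fcer1g, Lyz2 and Cd68 serve as general myeloid markers, being 2 signalling adaptors, lysozyme and a lysosomal membrane protein. They are 10 of 18193 genes with a named probe set, and all of their probe sets were read, 15 of 45037.

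Langerhans cells are dendritic cells that live among the keratinocytes of the epidermis and present antigen to T cells. They display peptides on MHC class II molecules, each a pair of an alpha and a beta chain. The invariant chain Cd74 occupies the peptide groove during assembly, and lysosomal proteases, among them cathepsin S, cut it away before a peptide is loaded. Resting keratinocytes carry class I molecules and little class II, and interferon-gamma is known to induce class II on them.

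The data are 4 Affymetrix expression arrays of sorted basal cells of tail epidermis, from mice of the outbred CD-1 stock. Groups were named for the tamoxifen-inducible Cre that the mice carried together with a RosaYFP reporter. In K14CREER/RosaYFP the keratin 14 promoter of basal keratinocytes drives Cre, and the mice received 1 ug of tamoxifen. In InvCREER/RosaYFP the involucrin promoter, active in committed keratinocytes, drives it, and the mice received 10 ug. All cells were living, YFP-positive, high in alpha6 integrin and CD34-negative, taken 3.5 days after induction by the titles and 4 days by the protocol. Each line has 2 arrays. The labels give no age or sex, nor whether the 2 arrays of a line are separate animals. The p-values thus cover the spread between arrays, which may be technical. Cre line and tamoxifen dose cannot be told apart.

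The sorted cells read as keratinocytes on every array, with Krt14 at log2 values of 13.82 to 14.17 and Krt5 at 13.21 to 13.84. Keratinocyte markers differed between the lines too: all 10 basal markers were lower and 7 of 10 differentiation markers higher on both InvCREER arrays, without overlap. Of all genes, 22.5% were lower and 19.0% higher in this way. InvCREER 1 stood apart from the other arrays in several ways. Its Xist value was 12.56, against 8.26 on InvCREER 2 and 7.25 and 5.44 in K14CREER. The class II genes, Cd207 and Ctss had this same order of arrays. The Y-linked Kdm5d was at 5.04 on InvCREER 1, against 8.09 on InvCREER 2 and 7.01 and 7.74 in K14CREER. Kdm5d was thus lowest on InvCREER 1, but otherwise did not run in the reverse order of Xist. For InvCREER 1 the ratio of 3' to 5' probe sets for Actb, a sign of RNA quality, was highest, at 1.24 in log2 units against 0.68 to 0.94. Its 10 sebaceous gland markers had a mean of 10.44, against 8.96 on InvCREER 2 and 7.63 and 7.05 in K14CREER. Each result is therefore given for InvCREER 1 and InvCREER 2 separately against the same 2 K14CREER arrays. The part of these differences in the results was not tested.

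Sequences upstream of the genes were read first, because the class II genes of the results share a known promoter element. H2-Ab1, H2-Aa and H2-Eb1 lie side by side on chromosome 17, between H2-Ob and H2-Eb2. The RefSeq promoter table (GRCm38.p6) held 7 of the 10 genes, without H2-Ab1, Tyrobp and Cd74. The 150 bases upstream of the start site are shown for 3 genes that lay among the highest differences, 5' to 3', with motif matches in capitals. They are chr17:34287824-34287973, minus strand, for H2-Aa, chr17:34305717-34305866, plus strand, for H2-Eb1 and chr3:95526636-95526785, plus strand, for Ctss.
H2-Aa: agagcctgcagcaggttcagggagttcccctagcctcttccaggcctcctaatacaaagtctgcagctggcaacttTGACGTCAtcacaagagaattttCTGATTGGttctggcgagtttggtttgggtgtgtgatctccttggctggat
H2-Eb1: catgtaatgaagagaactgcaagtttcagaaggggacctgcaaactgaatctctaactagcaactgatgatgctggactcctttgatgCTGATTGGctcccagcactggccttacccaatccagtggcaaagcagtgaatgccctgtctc
Ctss: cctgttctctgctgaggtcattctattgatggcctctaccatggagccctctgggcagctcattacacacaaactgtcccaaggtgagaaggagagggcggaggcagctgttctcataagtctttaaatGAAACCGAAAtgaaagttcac

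CTGATTGG is the Y box of class II promoters, a site of the CCAAT-binding factor NF-Y. It lay 51 to 44 bases upstream of the H2-Aa start and 62 to 55 bases upstream of the H2-Eb1 start. Searched on both strands over 250 upstream bases, it was in 3.83% of 32851 promoters, and among the other class II pathway genes it was in H2-Eb2 and H2-Oa. TGACGTCA, the cAMP response element found in class II X boxes, lay 74 to 67 bases upstream of H2-Aa, and was in 1.55% of promoters. The interferon-stimulated response element, searched as GAAA, any 2 bases and GAAA, lay 21 to 12 bases upstream of Ctss, and was in 2.98% of promoters. GAGGAAGT, a site of the myeloid factor PU.1, was in 2.44% of promoters and in none of the 7 windows. The motifs were picked with the sequences in view, no 2 matches overlapped, and a match is a description of the letters alone.

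The class II genes, Cd207 and Ctss lay higher on both InvCREER arrays than on either K14CREER array, and much higher on InvCREER 1 than on InvCREER 2. Against the mean of the K14CREER arrays the 4 class II genes had a median difference of 2.85 (7.22-fold) on InvCREER 1 and 1.15 (2.22-fold) on InvCREER 2, in log2 units. With the spread between the InvCREER arrays in the test, no member was called. The general myeloid markers did not share one pattern. Tyrobp followed the class II genes with a smaller difference, Fcer1g and Lyz2 lay 0.06 to 0.48 log2 units above the K14CREER mean on both InvCREER arrays, and Cd68 lay lower. In sorted bulk samples, a change in the number of cells of a type and a change in RNA per cell cannot be told apart.

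**Figure D1:**
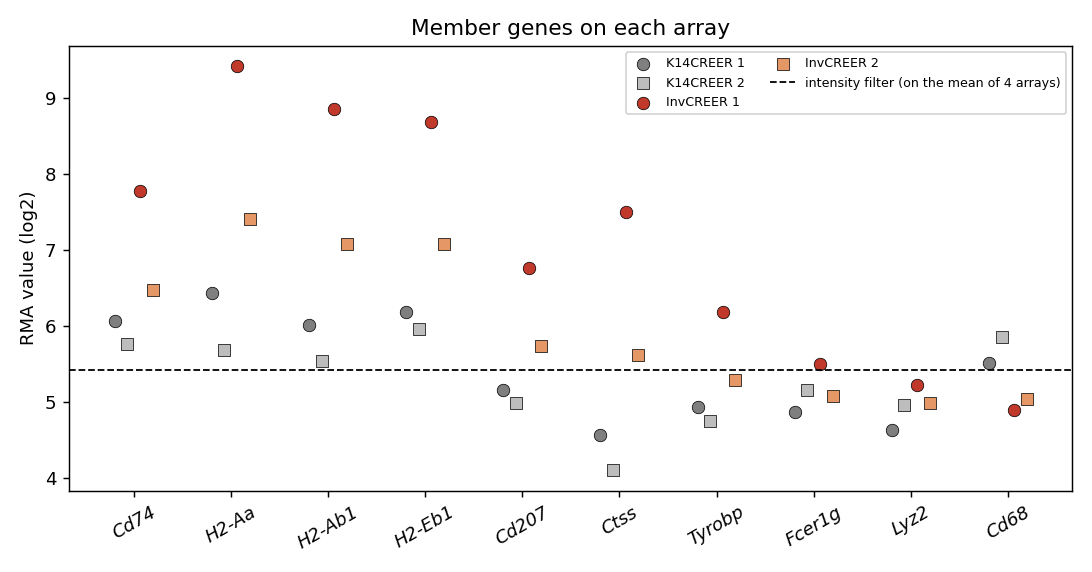
RMA values (log2, vertical axis) of the 10 genes on the 4 arrays, with the brightest probe set standing for each gene. Grey symbols are K14CREER arrays and red and orange symbols InvCREER arrays. The dashed line is the filter value of 5.42, applied to the mean of the 4 arrays. InvCREER 1 is the highest array for 9 of the 10 genes, and Cd68 is the exception.

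H2-Aa encodes an alpha chain of class II. It was at 6.44 and 5.68 on the K14CREER arrays, 9.43 on InvCREER 1 and 7.41 on InvCREER 2. The lines did not overlap, and InvCREER 1 lay 2.02 above InvCREER 2. The difference from the K14CREER mean was 3.37 (10.3-fold) on InvCREER 1 and 1.35 (2.55-fold) on InvCREER 2.

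H2-Ab1, the beta chain that pairs with it, was at 6.01 and 5.54 on the K14CREER arrays, 8.87 on InvCREER 1 and 7.08 on InvCREER 2. Its differences of 3.09 and 1.30 made the same order of arrays. H2-Eb1, a beta chain of the second class II isotype, was at 6.18 and 5.96 on the K14CREER arrays, 8.69 on InvCREER 1 and 7.08 on InvCREER 2. It lay 2.61 and 1.00 above the K14CREER mean, again without overlap.

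Cd74, the invariant chain that escorts them, was at 6.07 and 5.77 on the K14CREER arrays, 7.78 on InvCREER 1 and 6.48 on InvCREER 2. Its differences, 1.86 and 0.56, were the smallest among the class II genes. The K14CREER arrays were 0.30 apart for Cd74, so that InvCREER 2 exceeded the higher of them by 0.41.

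The class II genes were read by 9 probe sets, 8 of which can match several transcripts. Only the H2-Eb1 probe set is of the kind designed for 1 transcript. All 6 tested probe sets of H2-Aa and H2-Ab1 lay higher on both InvCREER arrays than on either K14CREER array. The dimmest of them, for H2-Ab1, had a K14CREER mean of 4.58, under the filter value, and was tested only through its InvCREER values. Differences on InvCREER 1 ran from 2.92 to 3.37 for the 3 tested H2-Aa probe sets and from 2.34 to 3.09 for the 3 of H2-Ab1. On InvCREER 2 they ran from 0.71 to 1.35 and from 1.09 to 1.30. The fourth H2-Aa probe set stayed dim, at 3.02 to 3.51, with InvCREER 2 below both K14CREER arrays, and was not tested.

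**Figure D2:**
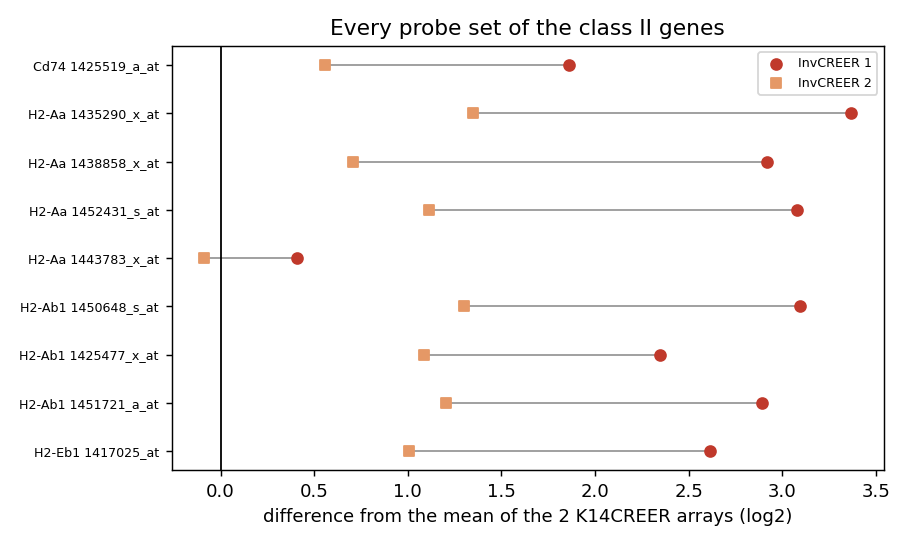
Difference of InvCREER 1 (circles) and InvCREER 2 (squares) from the mean of the 2 K14CREER arrays (log2, horizontal axis) for all 9 probe sets of Cd74, H2-Aa, H2-Ab1 and H2-Eb1. InvCREER 1 lies to the right for each probe set, and the dim H2-Aa probe set lies near 0, at 0.41 and -0.09.

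Ctss, whose protease trims the invariant chain, was at 4.57 and 4.10 on the K14CREER arrays, 7.50 on InvCREER 1 and 5.61 on InvCREER 2. Its differences were 3.17 (9.02-fold) and 1.28 (2.43-fold). Cd207 was at 5.16 and 4.99 on the K14CREER arrays, 6.77 on InvCREER 1 and 5.74 on InvCREER 2. It differed by 1.70 (3.24-fold) and 0.67 (1.59-fold). The K14CREER means of both genes, 4.33 and 5.07, lay under the filter value, so both genes entered the test through their InvCREER values.

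Tyrobp, the adaptor DAP12 of activating myeloid receptors, was at 4.93 and 4.74 on the K14CREER arrays, 6.19 on InvCREER 1 and 5.29 on InvCREER 2. The lines did not overlap. Fcer1g, the Fc receptor gamma chain, was at 4.87 and 5.16 on the K14CREER arrays and 5.50 and 5.07 on the InvCREER arrays, where the lines overlapped. Lyz2, the lysozyme of macrophages and neutrophils, was at 4.63 and 4.96 on the K14CREER arrays and 5.23 and 4.98 on the InvCREER arrays, with the lines 0.02 apart. Cd68, a lysosomal glycoprotein of macrophages, was at 5.51 and 5.86 on the K14CREER arrays and 4.89 and 5.04 on the InvCREER arrays, the reverse order. All 4 lay below the filter on the mean of the arrays.

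Over all 10 genes, 8 were higher on both InvCREER arrays than on either K14CREER array, where 19.0% of the 18193 genes were, and 1 was lower, where 22.5% were. InvCREER 1 was at least 2-fold above both K14CREER arrays for 7 of the 10, against 2.34% of genes. InvCREER 2 was so for 2, H2-Ab1 and Ctss, against 1.79% of genes. InvCREER 1 exceeded InvCREER 2 at least 2-fold for 6 of the 10, against 1.07% of genes. With 1 array on each side, this last difference was not tested. The K14CREER arrays were at least 2-fold apart for 0 of the 10, against 2.19% of genes. The median difference of the 10 genes was 1.78 on InvCREER 1 and 0.61 on InvCREER 2, where the medians over all genes were -0.05 and 0.01.

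The genes were tested in a limma fit across the 22519 probe sets whose mean passed the filter, with Benjamini-Hochberg adjustment. Of the 10 genes 6 passed the filter, Cd74, H2-Aa, H2-Ab1, H2-Eb1, Cd207 and Ctss, the last 2 of them only through their InvCREER values. With 2 arrays per line 0 of the 4 class II genes were called, where 0.958% of tested genes were called higher. With no filter limma called 0 of the 10, against 0.621% of all genes called higher. At an unadjusted p under 0.05 and no filter, 7 of the 10 were higher and 1, Cd68, was lower, against 5.84% and 6.33% of all genes. H2-Aa had a difference of 2.36 (SE 0.65, adjusted p = 0.166 by limma). Its means were 6.06 ± 0.53 in K14CREER and 8.42 ± 1.43 in InvCREER (SD, n = 2 arrays each). Ctss differed by 2.23 (SE 0.59, adjusted p = 0.149 by limma), H2-Ab1 by 2.20 (SE 0.57, adjusted p = 0.144 by limma) and H2-Eb1 by 1.81 (SE 0.51, adjusted p = 0.174 by limma). Cd74 and Cd207 differed by 1.21 and 1.18 (adjusted p = 0.285 and 0.208 by limma). The SD between the InvCREER arrays was 2.68 to 7.25 times that between the K14CREER arrays for these 6 genes.

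Each InvCREER array was also tested alone. The limma fit of InvCREER 1 against both K14CREER arrays assumes that the lone array varies as those do. For the 6 tested genes the SD between the InvCREER arrays was 2.68 to 7.25 times that between the K14CREER arrays. The fit leaves that spread out of its p-values. With no filter it called 7 of the 10 genes higher, against 1.98% of all genes: the 4 class II genes, Cd207, Ctss and Tyrobp (adjusted p = 0.0280 by limma for Tyrobp). With the filter the 4 class II genes were called, against 2.90% of tested genes, with adjusted p by limma from 0.000237 for H2-Aa to 0.00825 for Cd74. In the same fit of InvCREER 2 with no filter, 1 of the 10, Ctss, was called (adjusted p = 0.0438 by limma), against 1.18% of all genes. With the filter, which Ctss passed only through InvCREER, its difference was 1.28 (SE 0.31, adjusted p = 0.0469 by limma), and 0 of the 4 class II genes were called, against 1.85% of tested genes. The Ctss call was lost without the variance trend and under both other scalings, and when the probe sets of a gene were averaged. H2-Ab1 was at 1.30 (adjusted p = 0.0872 by limma) and H2-Aa at 1.35 (adjusted p = 0.108 by limma). Both comparisons use the same K14CREER arrays and are not independent of each other.

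Among the other genes of class II presentation, 19 of 20 listed had a named probe set and 13 were tested. With 4 arrays limma called 0 of the 13. An unadjusted p under 0.05 was found for 2, where 13.9% of tested probe sets had one in either direction. Their median difference was 0.00 on InvCREER 1 and -0.08 on InvCREER 2, near the medians over all genes. InvCREER 1 was at least 2-fold above both K14CREER arrays for 1 of the 19, against 2.34% of all genes. H2-DMa, part of the peptide exchange factor of class II, was at 5.41 and 5.54 on the K14CREER arrays, 6.57 on InvCREER 1 and 5.59 on InvCREER 2. It was the 1 gene of the list that InvCREER 1 had at least 2-fold above both K14CREER arrays, and was not called there (adjusted p = 0.0844 by limma). Ciita, the master activator of class II transcription, lay at 4.68 to 5.11 on the 4 arrays, and was not tested. The neighbours H2-Ob and H2-Eb2 lay at 3.09 to 3.36 and 5.79 to 6.10.

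Of the proteases and reductase that prepare antigen, Ctsb, Ctsd and Ifi30 differed by at most 0.50 in size from the K14CREER mean on either InvCREER array. Ctsl, the cathepsin that trims the invariant chain in thymic epithelium, went the other way. It was at 11.40 and 11.68 on the K14CREER arrays, 9.49 on InvCREER 1 and 10.27 on InvCREER 2. Ctsl was called lower on each InvCREER array alone (adjusted p = 0.000164 and 0.00619 by limma), where 1.76% and 1.12% of tested genes were, and missed the threshold with 4 arrays (adjusted p = 0.0565 by limma). Lgmn, an endopeptidase of the same compartment, was called lower on InvCREER 1 (-1.48, adjusted p = 0.0281 by limma) and was at -0.59 on InvCREER 2.

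Class I genes present peptides on nearly all cells. The 13 measured genes had means of 9.44 on K14CREER 1, 8.95 on K14CREER 2, 9.45 on InvCREER 1 and 8.96 on InvCREER 2. Of the 13, 10 were higher on array 1 than on array 2 in both lines, against 25.3% of all genes. By the same count 7 of the 10 class II and Langerhans cell genes were. Psmb8, an immunoproteasome subunit, was at 7.33 and 6.25 on the K14CREER arrays and 7.66 and 6.29 on the InvCREER arrays. Nlrc5, the class I transactivator, was at 6.52 and 5.35, then 7.14 and 5.50. H2-D1, a class I heavy chain, was called lower on each InvCREER array alone, by differences of -0.83 and -1.16 (adjusted p = 0.0317 and 0.00745 by limma). With 4 arrays limma called 0 of the 13, where 0.373% of tested genes were called lower. An unadjusted p under 0.05 was found for 1, where 13.9% of tested probe sets had one in either direction.

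**Figure D3:**
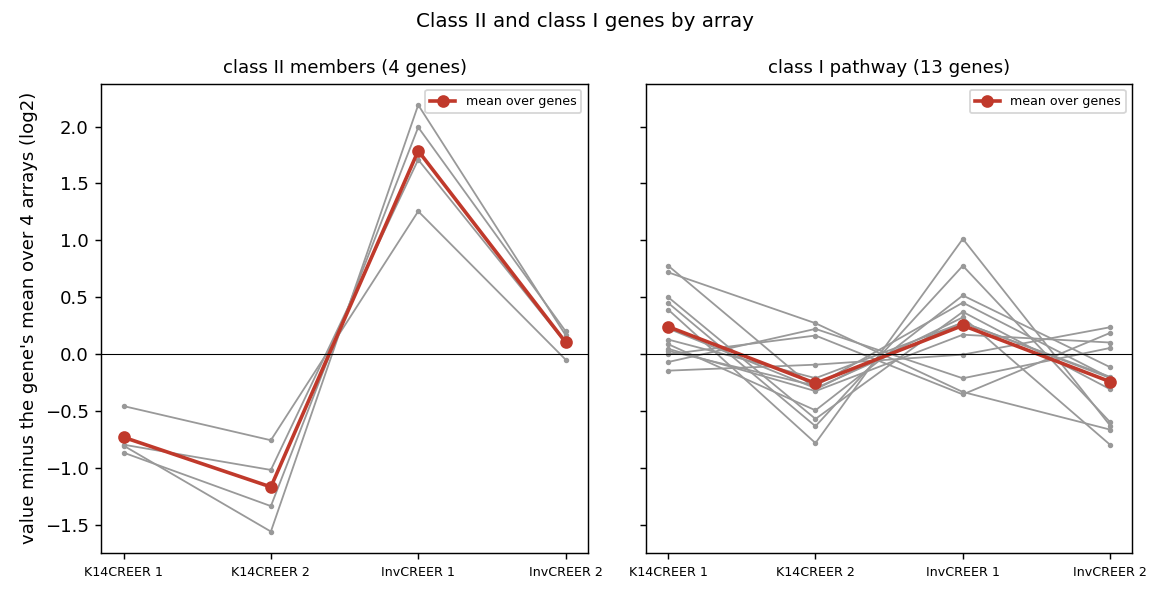
Log2 values minus each gene's mean over the 4 arrays (vertical axis) for the 4 class II genes (left) and the 13 class I pathway genes (right) on each array. Thin grey lines are genes and the red line is their mean. The class II mean is highest on InvCREER 1, at 1.79, and the class I means are alike for arrays of the same number.

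Interferon-gamma response genes were read because that cytokine induces class II. Of 16 measured genes 9 were tested, and limma called 0 with 4 arrays. Without overlap, 3 of the 16 were higher and 3 lower on both InvCREER arrays, against 19.0% and 22.5% of all genes. The higher were Cd274, Cxcl9 and Jak1, and the lower Irgm1, Jak2 and Socs1. Irgm1 was at 6.49 and 6.89, then 5.92 and 5.90. InvCREER 1 had 2 of the 16 at least 2-fold above both K14CREER arrays, Cd274 and Iigp1, against 2.34% of all genes. Cd274, the checkpoint ligand PD-L1, was at 4.67 and 5.23 on the K14CREER arrays, 7.10 on InvCREER 1 and 5.97 on InvCREER 2. It passed the filter only through InvCREER, and was called on InvCREER 1 alone (adjusted p = 0.00264 by limma), and not with 4 arrays (adjusted p = 0.147 by limma). Iigp1, an interferon-inducible GTPase, was at 5.69 on InvCREER 1 and 4.18 to 4.35 elsewhere. The median difference of the 16 genes was 0.17 on InvCREER 1 and -0.23 on InvCREER 2.

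Further markers of Langerhans and dendritic cells were mixed. Without overlap, 6 of the 22 genes were higher and 3 lower on both InvCREER arrays, against 19.0% and 22.5% of all genes. The lower genes were Tgfbr1, Tgfbr2 and Axl. InvCREER 1 had 2 of the 22 at least 2-fold above both K14CREER arrays, against 2.34% of all genes. Cd1d1, a lipid-presenting class I-like molecule, was at 5.29 and 4.98 on the K14CREER arrays, 6.73 on InvCREER 1 and 5.53 on InvCREER 2 (adjusted p = 0.0131 by limma for InvCREER 1), and it passed the filter only through InvCREER. Ptprc, which encodes the leukocyte antigen CD45, was at 5.41 on InvCREER 1 and 3.88 to 4.26 elsewhere. The receptor gene Csf1r, needed by Langerhans cells, was at 7.39 on InvCREER 1 and 6.46 to 6.63 elsewhere, and was not called. Itgax, the CD11c integrin chain, lay at 4.35 to 5.08. Epcam, shared by Langerhans cells and keratinocytes, was at 9.12 and 8.62 on the K14CREER arrays and 8.77 and 8.37 on the InvCREER arrays. Tgfbr2, the receptor of a cytokine that Langerhans cells depend on, was called lower on InvCREER 1 (adjusted p = 0.0317 by limma). The median of the list was 0.11 on InvCREER 1 and 0.02 on InvCREER 2, against 1.78 and 0.61 for the 10 genes.

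Markers of other leukocytes were mostly dim. Of 28 macrophage and pan-myeloid genes 9 were tested, and limma called 0 in each of the 3 fits. At an unadjusted p under 0.05 there were 0 with 4 arrays, where 13.9% of tested probe sets had one in either direction. On all arrays 16 of the 28 lay below the filter value. Their mean was 5.05 to 5.17 on the 4 arrays. Without overlap, 4 of the 28 were higher and 6 lower on both InvCREER arrays, against 19.0% and 22.5% of all genes. Of the 9 tested, Cd52 and Cd14 had the largest differences on InvCREER 1, 0.92 and -0.77, in opposite directions. Cd52, a leukocyte surface glycoprotein, was at 6.33 on InvCREER 1 and 5.27 to 5.55 elsewhere, and passed the filter only through InvCREER. Cd14, a coreceptor for bacterial lipopolysaccharide, was at 7.01 and 6.88 on the K14CREER arrays, 6.17 on InvCREER 1 and 6.55 on InvCREER 2. Of 15 T cell genes 5 were tested and 1 was called, Thy1, a surface antigen that T cells share with fibroblasts. It was lower on InvCREER 1 (-1.85, adjusted p = 0.0460 by limma), with 9.18 on K14CREER 1 and 7.80 on K14CREER 2. B cell, neutrophil and mast cell genes had array means of 4.37 to 4.73, and 1 of their 16 genes was bright enough to test. Dermal fibroblast markers had means of 7.04 and 6.31 on the K14CREER arrays and 6.09 and 5.87 on the InvCREER arrays. Of their 6 tested genes, the matrix genes Dcn and Sparc were called lower on each InvCREER array alone, and Sparc with 4 arrays too (adjusted p = 0.00612 by limma). Melanocyte, Merkel cell and endothelial markers, 7 of them tested, had no call by limma in the 3 fits. By unadjusted p under 0.05 there were 0 with 4 arrays, against the same 13.9%. The melanocyte gene Tyrp1 lay 0.96 above the K14CREER mean on InvCREER 2.

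**Figure D4:**
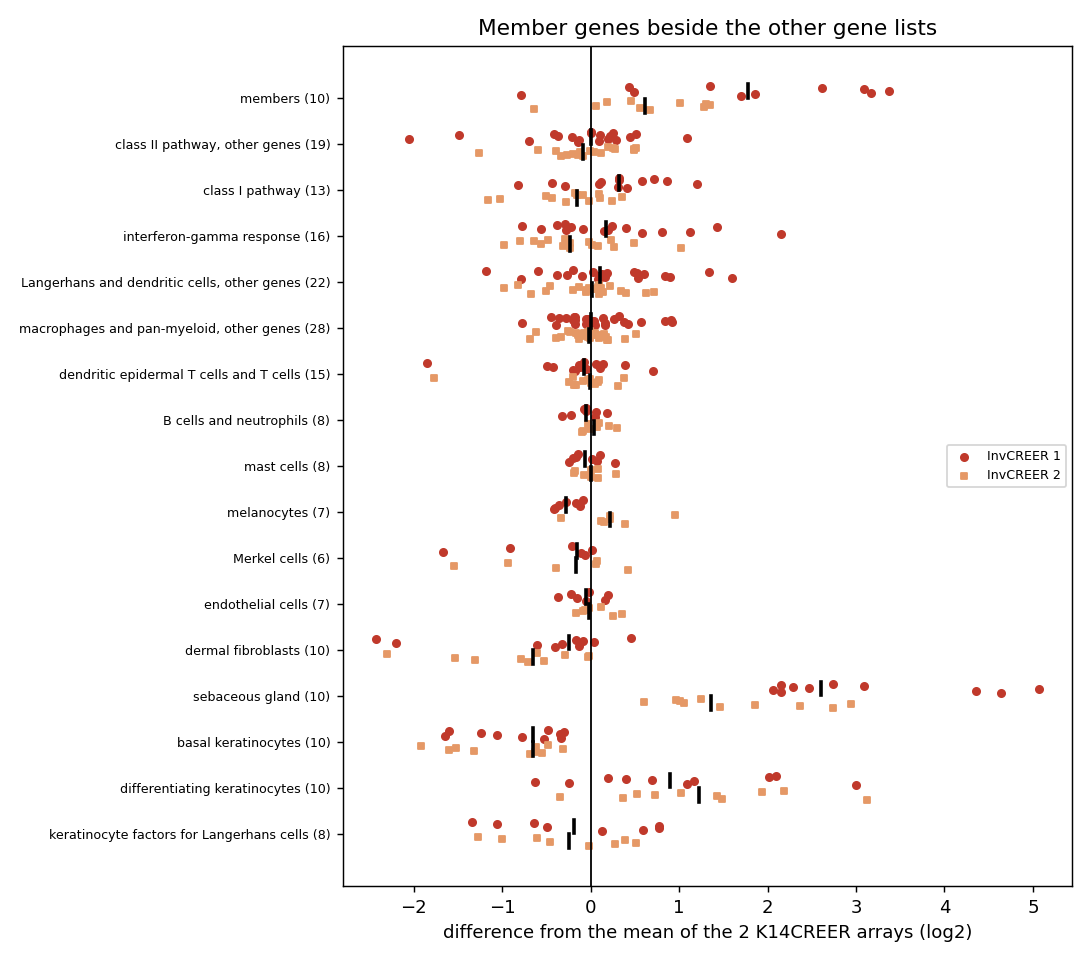
Difference from the mean of the 2 K14CREER arrays (log2, horizontal axis) for each measured gene of the 17 lists, with the number of genes in brackets. Circles are InvCREER 1, squares InvCREER 2 and black bars medians. The medians were 1.78 and 0.61 for the 10 genes, 2.60 and 1.36 for the sebaceous list, 0.89 and 1.22 for differentiating keratinocytes, -0.65 and -0.66 for basal keratinocytes and -0.25 and -0.66 for dermal fibroblasts. Those of the other 12 lists lie between -0.28 and 0.32.

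The sebaceous gland markers had means in the same order of arrays as the 10 genes. All 10 were at least 2-fold above both K14CREER arrays on InvCREER 1 and 5 were on InvCREER 2, against 2.34% and 1.79% of all genes. With 4 arrays Dgat2 was called. For InvCREER 2 limma called Scd1, Far2, Cidea, Elovl3, Dgat2 and Fabp5, and for InvCREER 1 those and Plin2, Scd3, Pparg and Mc5r, of which the last 3 passed the filter only through InvCREER. Far2, a fatty alcohol synthesis enzyme of sebum, was at 6.28 and 5.11 on the K14CREER arrays, 10.77 on InvCREER 1 and 8.63 on InvCREER 2. Whether these markers and the class II genes come from the same cells was not tested.

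Keratinocyte markers differed between the lines as well, with InvCREER 1 and InvCREER 2 close to each other. Of the basal markers, Krt15 and Lamb3 were called lower by limma with 4 arrays. Itgb4, Itgb1 and Col17a1 were called lower on each InvCREER array alone, Krt14 and Itga6 on InvCREER 1 and Krt5 and Dst on InvCREER 2. Of the differentiation markers, Krt1, Krt10, Dsg1a, Dsc1 and Sbsn were called higher with 4 arrays. Ivl, Lor and Flg overlapped between the lines, and Ivl and Flg were too dim to test. Ivl, the involucrin gene, was at 4.58 and 6.23 on the K14CREER arrays and 4.78 and 5.06 on the InvCREER arrays. Krtdap was called higher on InvCREER 2, and Tgm1, which passed the filter only through InvCREER, on each InvCREER array alone. The part of these markers in the differences of the class II genes was not tested.

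Genes with the most similar pattern over the 4 arrays were found by the root mean square difference of centred log2 values from the class II mean, over 11270 tested genes. The 10 closest were Emb, Krt79, Mgll, Slc27a4, Scd3, Mc5r, Oxtr, Lhpp, Nrg4 and Acox2, with differences of 0.07 to 0.16. Ctss was at 0.18, Cd207 at 0.43 and Tyrobp at 0.57 by the same measure. The class II genes that make up the reference were at 0.09 (H2-Eb1), 0.16 (H2-Ab1), 0.28 (H2-Aa) and 0.37 (Cd74). Values were centred and not scaled, so the measure takes in the size of the differences as well as the order of arrays. Emb, which encodes the membrane glycoprotein embigin, was at 7.27 and 6.77 on the K14CREER arrays, 9.59 on InvCREER 1 and 8.00 on InvCREER 2. Krt79, a keratin of the follicle opening and sebaceous duct, was at 9.26 and 8.79, then 11.94 and 10.06. Scd3, a stearoyl-CoA desaturase, and Mc5r, a melanocortin receptor, are also on the sebaceous list. Scd3, Mc5r, Nrg4 and Acox2 passed the filter only through InvCREER. None of the 10 was called with 4 arrays (adjusted p = 0.137 to 0.268 by limma). This follows from their choice, since they were picked for the pattern of class II genes that were not called either.

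Keratinocyte factors that recruit or keep Langerhans cells were read last, and limma called 0 of 6 tested in each of the 3 fits. At an unadjusted p under 0.05 there were 3 with 4 arrays, where 13.9% of tested probe sets had one in either direction. Il34, the ligand on which Langerhans cells depend, was at 6.29 and 6.89 on the K14CREER arrays and 7.37 and 6.98 on the InvCREER arrays. Csf1, a ligand of the same receptor, was at 5.80 and 6.51, then 6.92 and 6.66. Tgfb1 lay lower, at 6.44 and 6.38 against 5.35 and 5.41 (adjusted p = 0.0922 by limma). Cdh1, the E-cadherin that holds Langerhans cells to keratinocytes, was at 11.64 and 11.56, then 12.19 and 11.87.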

How the data were processed

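The authors amplified total RNA with a GeneChip 3' IVT kit, per the labels' protocols. The deposited values are log2 values per probe set. The submitters' processing notes name RMA and Affymetrix Expression Console 1.1. Array medians were 5.41 to 5.44. RMA gives arrays a common distribution and can compress differences. Detection calls were not used here, and the number of arrays limits the precision.

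Of 45101 probe sets, 64 controls were set aside. Symbols came from the platform annotation, looked up by Entrez number in RefSeq: 34945 probe sets had 1 symbol, 932 several and 9160 none here. The brightest probe set on average stood for its gene. Probe sets with a mean at or above the median, 5.42, were tested with limma 3.58.1 in R 4.3.3 (lmFit, eBayes with trend, 2-sided) and called at an adjusted p under 0.05. Fits of 3 arrays had 1 residual degree of freedom. The smallest 2-sided p of an exact permutation test here, 2 arrays against 2, is 0.333. The test was tried on simulated data. Figures used matplotlib 3.10.9.

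The genes named were all members, called genes of the other lists, up to 4 genes per list with the highest mean where the text needed them, and the 10 genes nearest in pattern. Others, such as the neighbours, H2-DMa, Ciita, Nlrc5, Psmb8, Iigp1, Ptprc, Csf1r, Itgax, Epcam, Cd52 and Tgfb1, were chosen after their values were seen. The same holds for Axl, Cxcl9, Irgm1, Socs1, Tyrp1, Col3a1, Ivl, Lor and Flg. The members and lists were chosen with earlier results of these data known. Alternatives covered the filter, variance trend, array weights, scaling, replicate block, unit of testing, probe set kind, threshold and each array left out.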

Additional observations from a re-analysis of the deposited data

How the results depend on the processing

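With 4 arrays, 0 of the 6 tested members were called in the alternatives that kept all arrays, except with the replicate number as a block, where 4 were (H2-Aa, H2-Ab1, H2-Eb1 and Ctss). Over the arrays left out in turn the count ran from 0 to 6: 0 without either K14CREER array, 1 without InvCREER 1 and 6 without InvCREER 2. The 6 include Cd207 and Ctss, which passed the filter only through InvCREER. Same-numbered arrays deviated together (r = 0.38 across tested probe sets), but 2 pairs cannot show that the numbers pair the samples. The block raised the calls over all probe sets from 216 to 1390. For InvCREER 1 the 6 calls became 3 when probe sets open to several transcripts were dropped, since only 3 tested members have another. For InvCREER 2 the 1 call became 0 without the variance trend, with arrays centred on their medians and with quantile normalization. It became 3 with 1 probe set per gene tested and 2 at an adjusted p under 0.10. The median difference of the tested members, 2.00, was 1.20 with no filter, which takes in all 10 genes, and 1.14 to 2.85 over the arrays left out. No member passed the stricter filter, at the 75th percentile, so that it gives no value. Of 79 values of single members under an alternative, 0 changed sign. For many of them this was fixed in advance. The filter, variance trend, array weights, block and 1 probe set per gene left the difference as it was. As the lines of the 6 tested members did not overlap, leaving out an array could not change the sign either. Dim signal on the K14CREER arrays limits the size of the differences of Cd207, Ctss and Tyrobp. The class II genes lay little above the filter value of 5.42 there, at 5.54 to 6.44, so the limit may hold for them too.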
